A study of Mus musculus with 12 samples.

Results

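The 10 genes of mouse cells labelled B16F10, 5 near absent and 5 near switched on with a guide against Rnf19a, are described here across 12 RNA-seq libraries. The genes lower with the guide were Esx1, Tbx18, Gpr149, Cd163 and Tmem47, and the genes higher with it were Hhat, Mbnl3, Cntln, Itih5 and Magohb. These 10 of 29550 genes with a count were chosen by their FPKM, a level scaled for length and depth, in the untreated libraries, so the untreated difference between guides is given as a description and carries no test. The rule of choice used no IR-treated library, though earlier results of these data were known when the genes were chosen. Only the IR-treated libraries were used to test the 10 genes.

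B16F10 is a mouse melanoma line. The 4 groups, with 3 libraries each, were sgRnf19a cells given IR, control cells (sgNC) given IR, untreated sgRnf19a cells and untreated control cells. IR, an abbreviation that the labels do not spell out, lasted 24 h. The labels do not say how many guides were used, whether either population is a clone or a pool, or whether replicates were separate cultures. An effect of losing Rnf19a and a difference between the cell populations that carry the guides therefore cannot be told apart in this design, and p-values measure only the spread between these libraries. The columns read as IR-treated carry a D in place of the word IR and were placed by elimination; their names do give the guide, on which every test of the 10 genes rests. Library numbers are those of these columns.

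Total counts per library ranged from 34262483 to 45576326 with IR and from 62681644 to 71265107 untreated. Rnf19a, which encodes a RING-type E3 ubiquitin ligase, was at 27.45, 25.6 and 22.6 CPM (counts scaled to library size by TMM) in sgRnf19a libraries, against 33.5, 29.4 and 21.5 CPM in control libraries (log2 fold change -0.20, edgeR adjusted p = 0.45). After IR its levels were 18.1, 11.6 and 37.7 CPM in sgRnf19a_IR, against 4.37, 8.06 and 5.39 CPM in control_IR libraries, a log2 fold change of 1.93 (SE 0.48, edgeR adjusted p = 0.0385). The transcript was thus not lower with the guide in either condition at this threshold. Transcript counts alone do not report whether a guide disrupted the protein. Of 11 melanocyte markers, Tyr, Tyrp1, Mlana, Slc45a2 and Oca2 were at 0 in all 12 libraries, and Dct, Pmel and Sox10 averaged 0.288 CPM or less in each group. Of the others, Gpnmb averaged 54.2 CPM in sgRnf19a and 59.9 CPM in control libraries, Mitf 15.9 CPM in sgRnf19a and 11.4 CPM in control, and Slc24a5 2.96 CPM in sgRnf19a and 2.05 CPM in control. Most genes that define pigment cells, which the line name implies, were thus at or near 0. Of 9 epithelial markers, the keratin Krt8 averaged 208 CPM in sgRnf19a and 351 CPM in control libraries, with Krt18 and Krt19 also above 100 CPM, while Krt7 and the cadherin gene Cdh1 were at 0.0605 CPM or less in each group. Epcam averaged between 0.829 and 1.52 CPM in the groups, and Krt20, Cdx1 and Vil1 averaged 1.073 CPM or less in each.

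The 10 genes come from different pathways. Esx1 and Tbx18 encode DNA-binding transcription factors of the homeobox and T-box families, best known from placenta and from heart and urogenital mesenchyme. Gpr149, Cd163 and Tmem47 encode membrane proteins, an orphan G-protein-coupled receptor, a macrophage scavenger receptor for haemoglobin-haptoglobin complexes and a relative of the PMP22 and claudin proteins of cell junctions. Among the genes higher with the guide, Mbnl3 and Magohb act on RNA, Hhat attaches palmitate to Hedgehog ligands, Itih5 is a secreted heavy chain of the inter-alpha-trypsin inhibitor family, whose members bind hyaluronan, and Cntln encodes centlein, a protein of the linker that holds centrioles together in human cells. CpG dinucleotides in promoters are the sites at which DNA methylation can silence a gene.

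RefSeq promoter windows, 250 bases before to 50 bases after the gene start on GRCm38.p6, were found for 9 of the 10 genes. The start used for a window can differ from the gene coordinates given below, and the windows of Tmem47 and Mbnl3 lie wholly before those. The windows with the fewest and the most CpG dinucleotides in each direction are shown, to compare the promoters of genes that were near absent in opposite groups; CpG dinucleotides are in capitals. Cd163 (chr6:124304401-124304700, plus strand) and Tmem47 (chrX:81070394-81070693, plus strand) were lower with the guide. Hhat (chr1:192771170-192771469, minus strand) and Cntln (chr4:84884059-84884358, plus strand) were higher with it.
Cd163: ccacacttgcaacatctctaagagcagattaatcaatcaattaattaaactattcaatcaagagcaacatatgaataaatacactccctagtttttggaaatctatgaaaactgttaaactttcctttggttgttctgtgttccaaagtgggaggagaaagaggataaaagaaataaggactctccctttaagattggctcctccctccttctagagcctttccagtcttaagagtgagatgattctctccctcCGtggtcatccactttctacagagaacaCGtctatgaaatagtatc
Tmem47: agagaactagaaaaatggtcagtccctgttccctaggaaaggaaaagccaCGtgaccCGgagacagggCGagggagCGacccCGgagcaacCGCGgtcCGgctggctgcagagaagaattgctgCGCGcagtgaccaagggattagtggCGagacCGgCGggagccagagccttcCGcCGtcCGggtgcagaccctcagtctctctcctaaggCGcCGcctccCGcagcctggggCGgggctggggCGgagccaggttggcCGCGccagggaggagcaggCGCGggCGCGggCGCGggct
Hhat: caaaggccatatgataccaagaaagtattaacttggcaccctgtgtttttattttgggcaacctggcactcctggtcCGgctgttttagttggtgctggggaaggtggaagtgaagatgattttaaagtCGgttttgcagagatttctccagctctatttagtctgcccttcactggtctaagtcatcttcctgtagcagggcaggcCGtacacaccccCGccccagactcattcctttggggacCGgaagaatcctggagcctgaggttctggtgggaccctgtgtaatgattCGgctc
Cntln: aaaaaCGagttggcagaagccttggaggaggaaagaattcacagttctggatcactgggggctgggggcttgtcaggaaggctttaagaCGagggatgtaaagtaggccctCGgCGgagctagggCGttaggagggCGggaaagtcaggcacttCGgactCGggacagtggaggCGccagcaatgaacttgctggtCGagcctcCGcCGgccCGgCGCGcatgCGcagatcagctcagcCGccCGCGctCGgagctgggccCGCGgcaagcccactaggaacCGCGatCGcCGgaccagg
The windows held 2 CpG for Cd163, 29 for Tmem47, 6 for Hhat and 26 for Cntln. The remaining windows held 24 for Esx1, 15 for Tbx18, 19 for Mbnl3, 9 for Itih5 and 25 for Magohb, against a median of 7 over 32851 windows. CpG-rich windows thus occurred in both directions. Only Cd163 and Hhat lay below that median, and 23.3% of all windows held as few CpG as Cd163 and 47.9% as few as Hhat. The letters TATAAA, searched on both strands, were in 0 of the 9 windows, and in 13.6% of all windows.

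**Figure D1:**
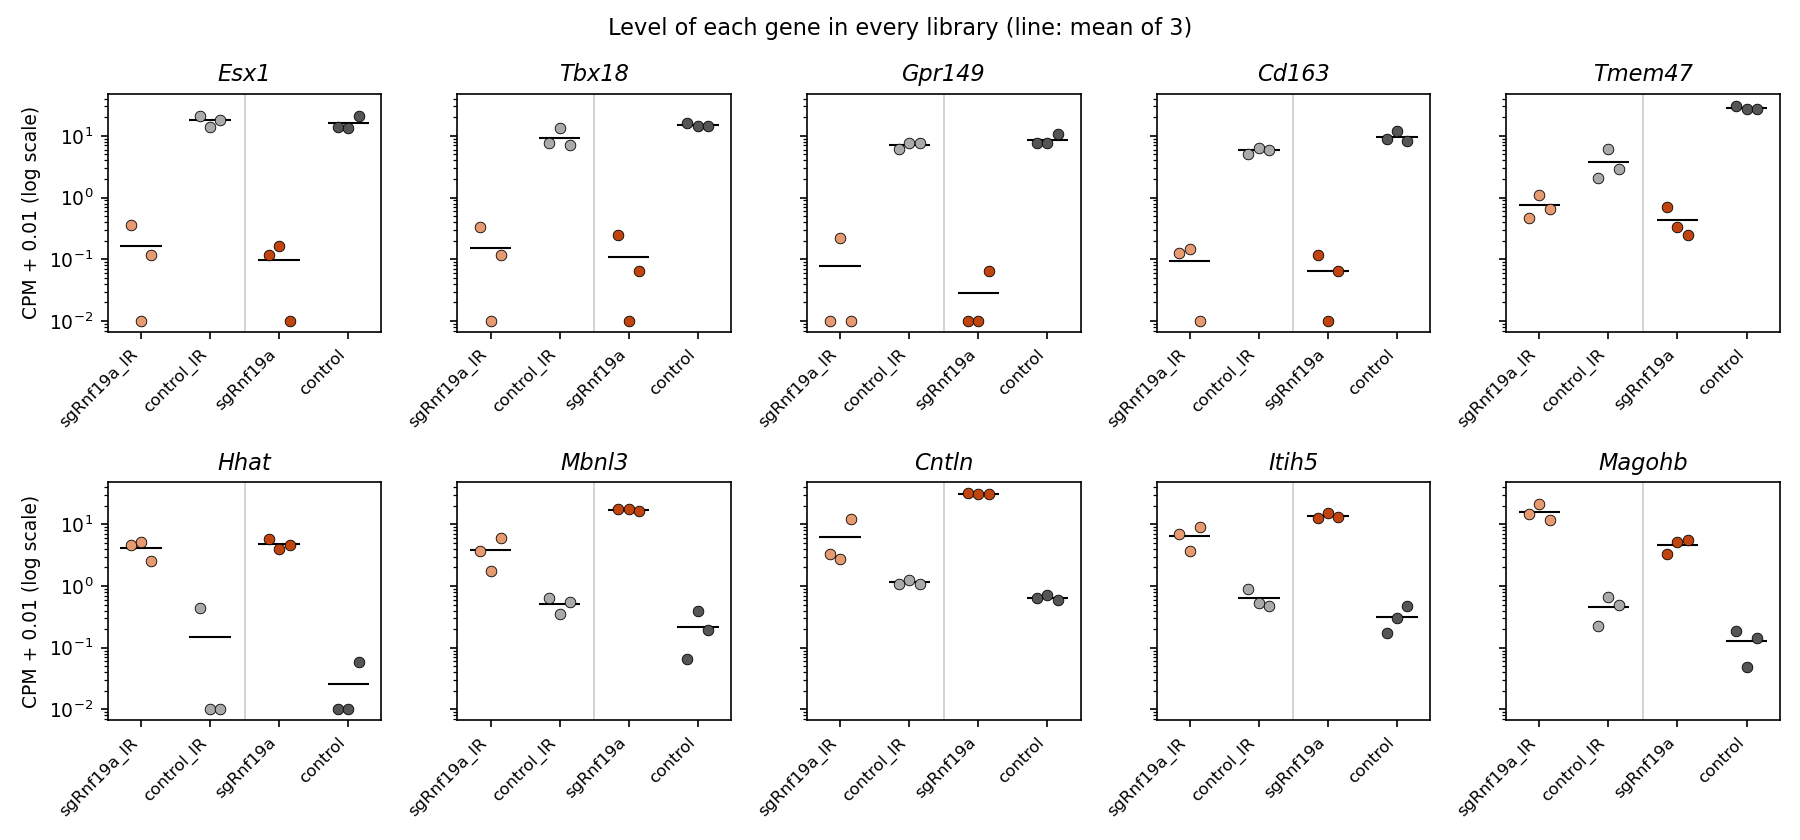
CPM plus 0.01 on a log axis for each gene in every library, with a line at the mean of 3; points at the bottom of an axis are libraries with no count. Each gene has a low group in both conditions, and for all 10 the high group is a smaller multiple of the low group with IR than untreated.

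In the untreated libraries the low group of each gene held between 0.203% (Gpr149) and 2.49% (Magohb) of the high group's level. All 10 genes were without overlap between groups there, where 39.5% of 17301 tested genes were, and nothing is read from that count since these libraries chose the genes. With IR the low group held between 0.759% (Gpr149) and 18.2% (Tmem47) of the high group's level. Every one of the 10 genes differed in the untreated direction in the IR-treated libraries at an edgeR adjusted p under 0.05, with no overlap between groups. Of all 15307 genes tested with IR, 18.3% were called, 10.7% higher and 7.57% lower with the guide, and 48.2% did not overlap. Esx1, Tbx18, Gpr149, Cd163, Hhat and Magohb entered the test through their high group alone, so a difference was built into their passing; Tmem47, Mbnl3, Cntln and Itih5 passed the count filter in both groups. Low counts of genes over 2 kb rise in steps of about 4, so 4 counts were taken as 1 read pair. This step was not checked for shorter transcripts, such as those of Esx1 and Magohb. Intervals below are exact binomial intervals at 95%, on read pairs rounded to whole numbers, for counting error only.

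The homeobox gene Esx1 (ENSMUSG00000023443, chrX:137115397-137120326, minus strand, mm10) was near absent with the guide in both conditions. It had 0.107, 0.156 and 0 CPM in the 3 sgRnf19a libraries, against 13.7, 13.5 and 20.95 CPM in the control libraries. With IR it had 0.348, 0 and 0.106 CPM in sgRnf19a_IR, against 21.2, 14.1 and 18.3 CPM in control_IR. The lowest control_IR library was 40.4 times the highest sgRnf19a_IR library. The log2 fold change with IR was -6.74 (SE 0.76, edgeR adjusted p = 0.0031). Esx1 averaged 17.8 CPM in control_IR and 16.0 CPM in control libraries, and its 37-base stretches were shared with no other gene. Its fold change on the log2 scale ran from -8.15 without sgRnf19a_IR library 1 to -6.22 without library 3.

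Tbx18, a T-box factor of mesenchymal progenitors (ENSMUSG00000032419, chr9:87702800-87731260, minus strand), followed the same layout. It had 0.240, 0 and 0.0551 CPM in sgRnf19a, against 16.3, 14.7 and 14.5 CPM in control libraries. With IR it had 0.325, 0 and 0.106 CPM in sgRnf19a_IR, against 7.56, 13.3 and 7.004 CPM in control_IR. The groups were far apart in both conditions, and the IR-treated log2 fold change was -5.88 (SE 0.81, edgeR adjusted p = 0.00632), or -7.22 without sgRnf19a_IR library 1. D030062O11Rik, a transcript on the opposite strand over Tbx18, averaged 0 CPM in sgRnf19a_IR and 1.03 CPM in control_IR. Whether the authors' counting used strand is not stated, and 19.2% of the 37-base stretches of Tbx18 occur in other genes, so reads of the pair may be mixed.

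Among the membrane proteins, Gpr149 (ENSMUSG00000043441, chr3:62529077-62605140, minus strand) had the smallest share of its high group's level left with the guide. It was at 0, 0 and 0.0551 CPM in sgRnf19a, against 7.73, 7.76 and 10.6 CPM in control libraries. After IR the 3 sgRnf19a_IR libraries held 0, 0.207 and 0 CPM, against 6.07, 7.69 and 7.62 CPM in control_IR. Only 1 of 3 libraries of either low group held any count. The low group's level with IR was 0.759% of the high group's, with an interval of 0.121% to 3.70%. With IR the log2 fold change was -6.87 (SE 0.96, edgeR adjusted p = 0.00669). Without sgRnf19a_IR library 3 the low group had no count and the fitted value, -11.0, is no bound.

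Cd163 (ENSMUSG00000008845, chr6:124304656-124330527, plus strand) had 0.107, 0 and 0.0551 CPM in sgRnf19a, against 8.99, 11.9 and 8.26 CPM in control libraries. With IR the levels were 0.116, 0.138 and 0 CPM in sgRnf19a_IR, against 5.04, 6.40 and 5.96 CPM in control_IR. The control libraries were all above 5 CPM, and the sgRnf19a libraries held 3 read pairs or fewer per group. The low level with IR was 1.40% of the high one (interval 0.149% to 4.57%), with a log2 fold change of -6.08 (SE 0.68, edgeR adjusted p = 0.00294). Of 17 macrophage markers, edgeR called 0 of 13 tested with IR and 0 of 15 untreated. Over all genes the share called was 18.3% with IR and 16.3% untreated, so few calls would be looked for in so short a list. In each condition 1 had an unadjusted p under 0.05 and 1 was called by DESeq2. Their median log2 fold change was 0.40 with IR and -0.34 untreated. Their summed level spanned 49.8 to 95.7 CPM in sgRnf19a_IR and 41.0 to 69.4 CPM in control_IR libraries, and 88.0 to 107 CPM in sgRnf19a and 94.1 to 108 CPM in control libraries. Marco was at 0 in all 12. In bulk RNA, fewer cells of a type and less RNA per cell cannot be told apart.

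Tmem47 (ENSMUSG00000025666, chrX:81070698-81095731, plus strand) had the smallest gap after IR of the genes lower with the guide. It had 0.694, 0.325 and 0.234 CPM in sgRnf19a, against 30.6, 27.4 and 27.6 CPM in control libraries. With IR it had 0.464, 1.10 and 0.639 CPM in sgRnf19a_IR, against 2.06, 6.22 and 2.87 CPM in control_IR. Libraries did not overlap, but the lowest control_IR library was 1.87 times the highest sgRnf19a_IR library. The log2 fold change was -2.36 with IR (SE 0.54, edgeR adjusted p = 0.032). Its level averaged 3.72 CPM in control_IR and 28.5 CPM in control libraries. The call was lost without sgRnf19a_IR library 1 (adjusted p = 0.0878), control_IR library 1 (0.0669), library 4 (0.0949) or library 5 (0.096). Gm26775, a long noncoding gene on the opposite strand, overlaps it, so its reads are uncertain too.

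Of the genes higher with the guide, 2 act on RNA. Mbnl3 (ENSMUSG00000036109, chrX:51117269-51205832, minus strand), a muscleblind RNA-binding protein that regulates splicing, had 17.6, 17.4 and 16.5 CPM in sgRnf19a, against 0.0553, 0.389 and 0.181 CPM in control libraries. With IR it had 3.74, 1.76 and 6.04 CPM in sgRnf19a_IR, against 0.639, 0.344 and 0.537 CPM in control_IR. The high group was tight without IR and spread more widely with it. In the IR-treated libraries the log2 fold change was 2.93 (SE 0.55, edgeR adjusted p = 0.0188). Without sgRnf19a_IR library 1 (0.067), control_IR library 1 (0.0788), library 4 (0.0735) or library 5 (0.0916) the adjusted p passed 0.05.

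Magohb (ENSMUSG00000030188, chr6:131284388-131293244, minus strand) encodes a near copy of the Magoh protein, a core subunit of the exon junction complex that marks spliced mRNA. Of the 10 genes it had the largest ratio of IR-treated to untreated level in its high group, 3.45. Levels were 3.27, 5.10 and 5.63 CPM in sgRnf19a, against 0.180, 0.0389 and 0.132 CPM in control libraries. With IR they were 14.9, 21.5 and 11.8 CPM in sgRnf19a_IR, against 0.213, 0.660 and 0.483 CPM in control_IR. The log2 fold change was 5.11 with IR (SE 0.45, edgeR adjusted p = 0.00125) and 5.26 without. The paralog Magoh averaged 128 CPM in sgRnf19a_IR and 188 CPM in control_IR (log2 fold change -0.56, SE 0.19, edgeR adjusted p = 0.0716), and per length it was far more abundant, at 132 FPKM in sgRnf19a_IR libraries, where Magohb averaged 7.32 FPKM. The 37-base stretches of Magohb were 56.3% shared with Gm44958, a processed pseudogene inside it, and its counts are uncertain to that extent. Gm44958 itself held at most 9 counts in any library.

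Hhat (ENSMUSG00000037375, chr1:192496711-192771223, minus strand), the Hedgehog acyltransferase, was at 5.72, 4.01 and 4.57 CPM in sgRnf19a, against 0, 0 and 0.0481 CPM in control libraries. After IR the sgRnf19a_IR libraries held 4.55, 5.21 and 2.56 CPM, against 0.426, 0 and 0 CPM in control_IR. A single control library held counts in each condition. The low level with IR was 2.96% of the high one, with an interval of 0.601% to 8.87%. The log2 fold change with IR was 4.93 (SE 1.17, edgeR adjusted p = 0.0355). It was no longer called without sgRnf19a_IR library 1 (adjusted p = 0.0878), control_IR library 4 (0.0885) or library 5 (0.113). Without control_IR library 1 the low group had no count and the fitted value, 10.22, is no bound. The potassium channel gene Kcnh1 overlaps its end on the other strand and averaged 1.58 CPM in sgRnf19a_IR and 0.483 CPM in control_IR libraries.

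Itih5 (ENSMUSG00000025780, chr2:10153571-10256529, plus strand) had 12.5, 15.1 and 13.3 CPM in sgRnf19a, against 0.166, 0.298 and 0.457 CPM in control libraries. With IR it had 6.89, 3.73 and 8.89 CPM in sgRnf19a_IR, against 0.888, 0.516 and 0.456 CPM in control_IR. Its lowest sgRnf19a_IR library stood 4.20 times above the highest control_IR library. Among the 4 genes whose low group also passed the filter, it was the only one called without any single library (adjusted p 0.00212 to 0.0447), at a log2 fold change of 3.40 (SE 0.47, edgeR adjusted p = 0.00646).

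Cntln (ENSMUSG00000038070, chr4:84884309-85131921, plus strand) had 32.4, 31.0 and 31.1 CPM in sgRnf19a, against 0.623, 0.713 and 0.578 CPM in control libraries. With IR it had 3.32, 2.73 and 12.4 CPM in sgRnf19a_IR, against 1.07, 1.26 and 1.07 CPM in control_IR. Library 4 of the sgRnf19a_IR group stood well above the others of its group, while the 3 control_IR libraries lay close together. The log2 fold change with IR was 2.46 (SE 0.64, edgeR adjusted p = 0.0414). Without that library it was 1.40 (adjusted p = 0.0209), and the call was lost without sgRnf19a_IR library 1 (0.0749) or any one of control_IR libraries 1, 4 and 5 (0.156, 0.106 and 0.144).

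**Figure D2:**
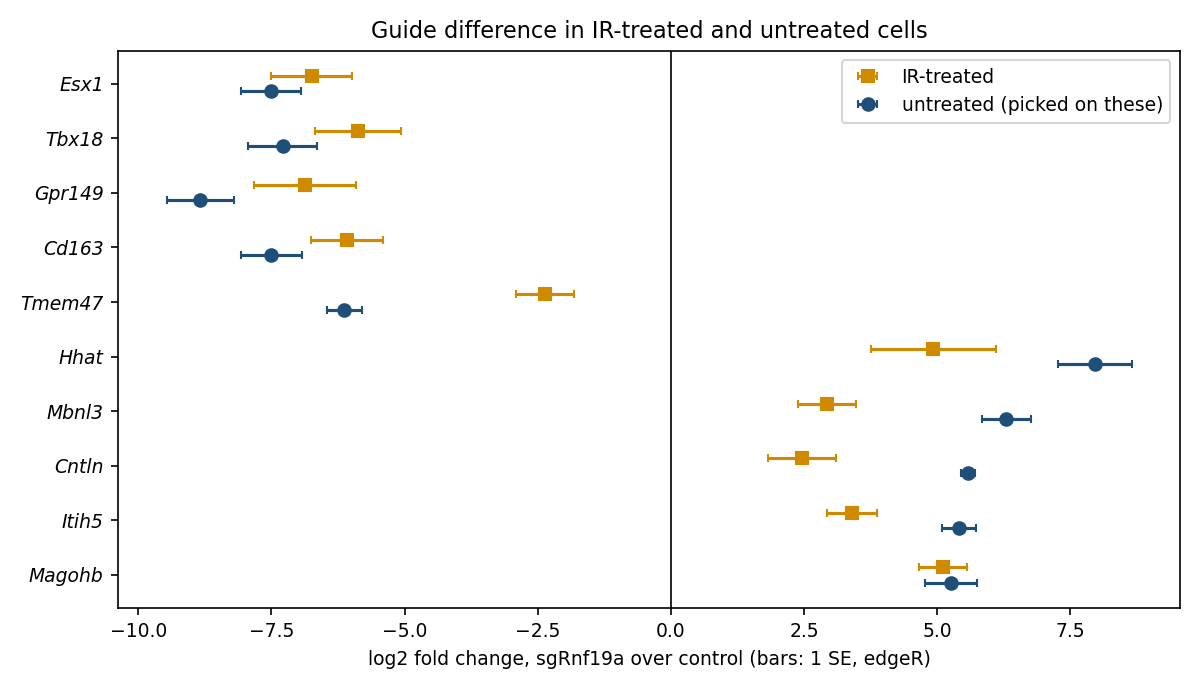
Log2 fold change of sgRnf19a over control for each gene, with bars of 1 SE, in IR-treated libraries (squares) and in the untreated libraries that chose the genes (circles). With IR the values run from -6.87 (Gpr149) to 5.11 (Magohb), and Tmem47, Mbnl3 and Cntln lie nearest to 0.

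The untreated libraries had chosen the genes for a wide gap. With read pairs pooled over each group's libraries and scaled to their summed size, a ratio of high to low group was taken. This ratio was smaller with IR than untreated for all 10 genes. It was 5.50 with IR and 67.9 untreated for Tmem47, 8.03 with IR and 81.5 untreated for Mbnl3, 5.52 with IR and 49.5 untreated for Cntln, and 11.3 with IR and 43.5 untreated for Itih5. The counting intervals of the conditions did not overlap for these 4 genes. They overlapped for the other 6, among them Hhat (33.8 with IR and 277 untreated), Gpr149 (132 with IR and 493 untreated) and Magohb (33.3 with IR and 40.2 untreated). These intervals leave out the spread between libraries, and the untreated ratios come from the libraries that chose the genes. Their overlap is therefore no test of a smaller gap with IR. The mean CPM of the low group was higher with IR than untreated for every gene, by 1.46 (Tbx18) to 8.85 times (Hhat), on 37 read pairs or fewer per group. For Esx1, Tbx18, Cd163, Tmem47, Cntln and Itih5 the low group held fewer read pairs with IR, so the rise appeared only after scaling to smaller libraries. Gpr149, Hhat, Mbnl3 and Magohb held more, with 3 read pairs with IR and 1 untreated for Hhat. The mean level of the high group with IR was 0.131 of the untreated one for Tmem47, 0.195 for Cntln, 0.224 for Mbnl3 and 0.477 for Itih5. For Cd163, Tbx18, Gpr149 and Hhat the ratio of IR-treated to untreated was 0.596, 0.612, 0.818 and 0.860, for Esx1 it was 1.11 and for Magohb 3.45. Tmem47 and Mbnl3 have the lowest GC content of the 10 transcripts (37.4% and 39.8%), and Magohb the shortest transcript (897 bases). Across 12823 genes the guide's log2 fold change with IR went with transcript length (Spearman rho 0.311) and GC content (rho -0.559), as a description across genes that share the same libraries. After a correction for both, all 10 genes were still called, with log2 fold changes of 1.76 for Mbnl3, 1.36 for Cntln and -3.16 for Tmem47. The part of length, GC content and depth in the changes with IR was not tested.

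Without a length and GC correction, genes beside the 10 were called by edgeR, both directions together, at a share near that of all genes. The neighbours are all protein-coding, while the share over all genes takes in every gene type tested. Of 100 protein-coding neighbours, the 5 nearest on each side of each gene, 49 were tested with IR, of which 9 were called, all higher, with a median log2 fold change of 0.47. This is 18.4%, against 18.3% of all genes, or 10.7% for calls in the higher direction. After the length and GC correction 5 of these neighbours were called, while the share over all genes was 20.2%, and calls over all genes split into 1367 higher and 1720 lower, against 1639 higher and 1158 lower without it. Untreated, 54 were tested and 10 called, 6 higher and 4 lower, with a median of -0.02. This is 18.5%, against 16.3% of all 17301 genes tested, of which 7.4% were higher and 8.93% lower. Values of single neighbours below are without the length and GC correction. Dhx36, an RNA helicase 22.1 kb from Gpr149, was higher with the guide with IR (log2 fold change 1.98, edgeR adjusted p = 0.0404) and untreated (0.47, adjusted p = 0.00794), while Gpr149 was near absent. Farther from Gpr149, Slc33a1 was also higher with IR (0.84, edgeR adjusted p = 0.0304) and untreated (0.85, adjusted p = 0.000494). E130311K13Rik was higher untreated (0.71, edgeR adjusted p = 0.0116). Styk1, a kinase-like gene 5.90 kb from Magohb, was higher by 1.36 with IR and 0.55 untreated (edgeR adjusted p = 0.0319 and 0.0193). Sfmbt2, a Polycomb-group gene 114 kb from Itih5, was higher by 2.83 with IR and 1.05 untreated (edgeR adjusted p = 0.0163 and 0.00146). On the other side of Itih5, Itih2 was not called in either condition, and Atp5c1 fell by 0.53 on the log2 scale untreated (edgeR adjusted p = 0.0375). Pex5, a peroxisomal import receptor gene 66.3 kb from Cd163, fell by 0.51 on the log2 scale untreated (edgeR adjusted p = 0.00851), and Nt5e, 596 kb from Tbx18, by 1.44 (adjusted p = 0.00138). C1ra, 182 kb from Cd163, rose by 1.36 with IR (edgeR adjusted p = 0.0236). Near Cntln, Ccdc171 rose with IR (2.16, edgeR adjusted p = 0.0294) and untreated (0.85, adjusted p = 0.0473). Ttc39b and Psip1 near Cntln and Kcnh1 beside Hhat rose with IR (1.55, 1.65 and 1.69, edgeR adjusted p = 0.035, 0.0477 and 0.0471). Calls thus went both with and against the direction of the gene they lie near. Nrk, the third gene from Esx1 and 1792 kb away, had no count in the sgRnf19a libraries and averaged 0.503 CPM in control libraries.

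**Figure D3:**
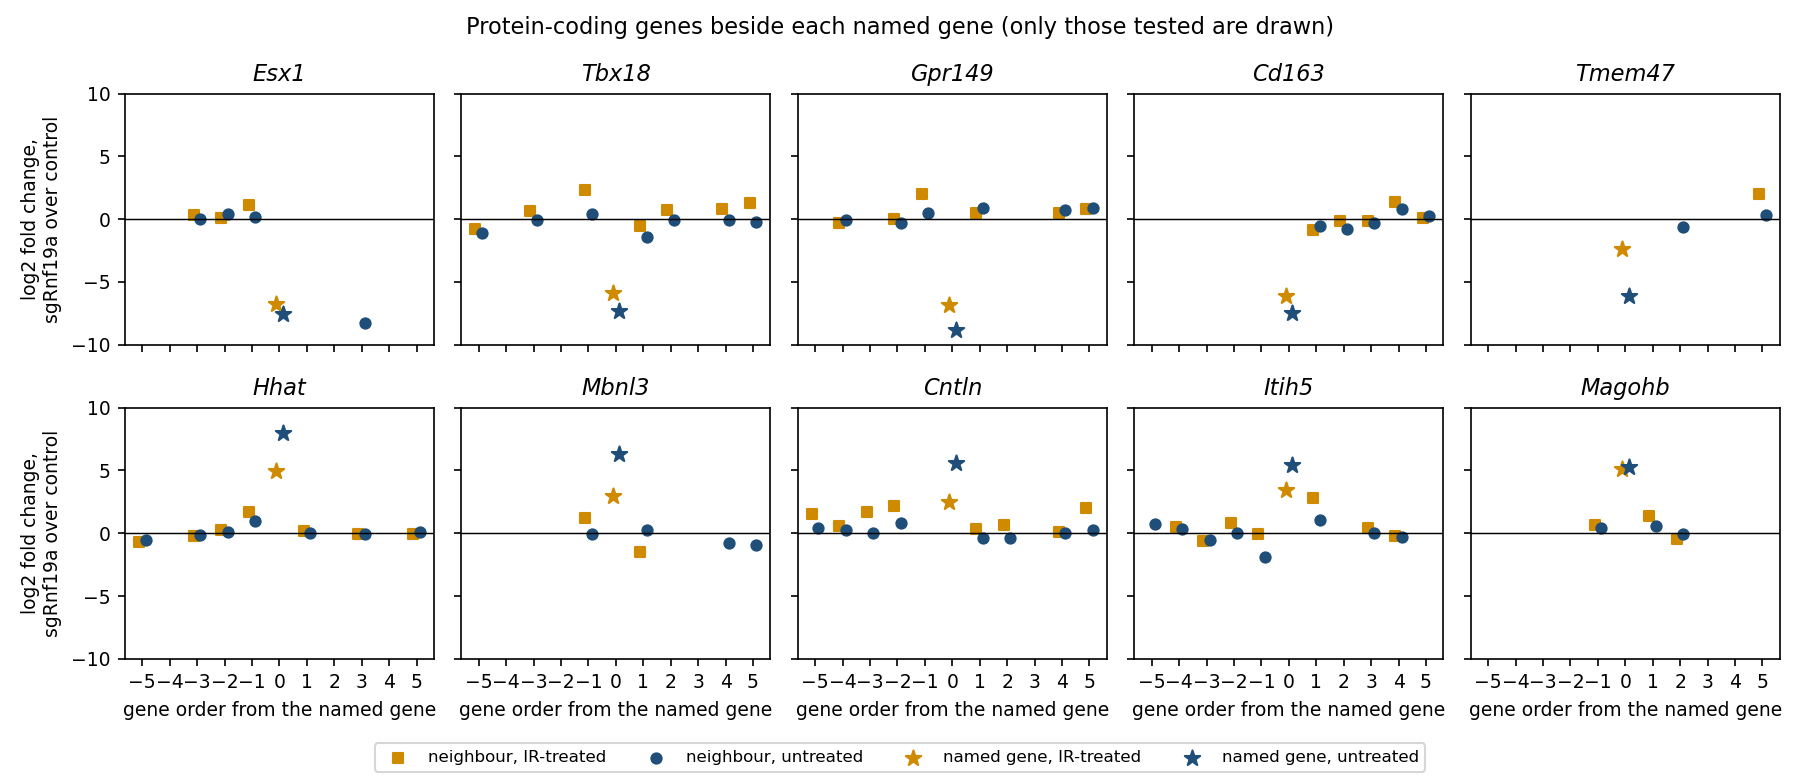
Log2 fold change of sgRnf19a over control for protein-coding genes in order around each of the 10 genes (stars), in IR-treated (squares) and untreated (circles) libraries; a position with no point was not tested. Outside Nrk at position 3 from Esx1, whose fitted value of -8.28 rests on a group with no count, the neighbours lie between -1.86 and 2.83.

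Among the 10 genes, 3 (Esx1, Mbnl3 and Tmem47) lie on chromosome X, and Cd163 and Magohb both lie on chromosome 6 in opposite directions. Mbnl3 was higher and the other two X-linked genes lower with the guide. The median log2 fold change of the X chromosome was 0.31 with IR (380 genes) and -0.01 untreated (399 genes). Chromosome 3, which carries Gpr149, had medians of 0.48 with IR and 0.25 untreated. Chromosome 15, which carries Rnf19a and none of the 10 genes, had medians of -0.42 with IR and -0.40 untreated. After the length and GC correction the medians with IR were -0.05 for X, 0.20 for chromosome 3 and -0.39 for chromosome 15, and untreated they were -0.07, 0.18 and -0.32.

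**Figure D4:**
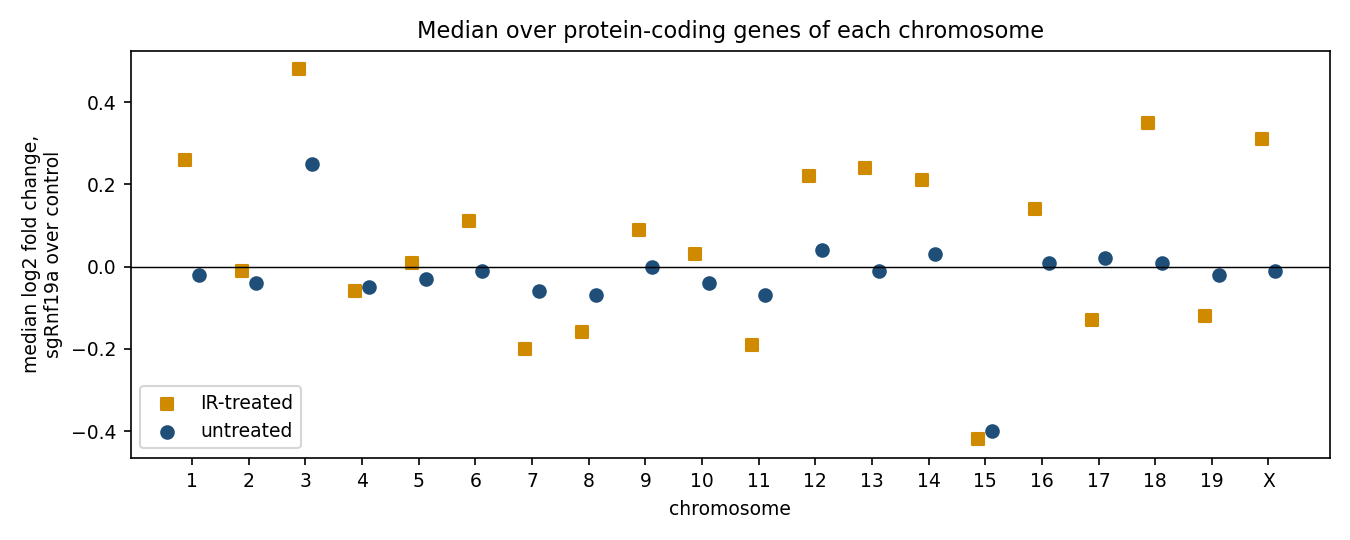
Median log2 fold change of sgRnf19a over control over the protein-coding genes of each chromosome, in IR-treated (squares) and untreated (circles) libraries. Untreated, chromosome 3 (0.25) and chromosome 15 (-0.40) stand apart, and the other chromosomes lie between -0.07 and 0.04.

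The 10 genes were part of a larger set with the same layout. Among 16902 protein-coding genes, 38 were higher and 29 lower with the guide by the same kind of gap, a lowest high library of at least 0.5 FPKM and at least 8 times the highest low library in the untreated groups. These included 4 of the 5 higher and all 5 lower genes described above. Hhat lay just outside, with a lowest sgRnf19a library of 0.472 FPKM, and Crip1 just inside, with a lowest control library of 0.503 FPKM. In the IR-treated libraries 37 of the 38 and 28 of the 29 did not overlap in the same direction, and 0 in the opposite one. Over all genes scanned, 17.4% were without overlap on the higher side and 19.4% on the lower side. Chromosome X held 5 of these 67 genes among 582 scanned there (0.859%), against 0.396% over all chromosomes, and the share was 0.881% on chromosome 18, 0.724% on chromosome 11 and 0.673% on chromosome 7. Genes chosen after their values were seen include Grb10, an adaptor of growth factor receptors, and Rtp4 and Oas1a, genes known to be induced by interferon. Grb10 averaged 1.63 CPM in sgRnf19a and 320 CPM in control libraries. Rtp4 averaged 46.0 FPKM in sgRnf19a and 2.25 FPKM in control libraries, and Oas1a 49.6 FPKM in sgRnf19a and 3.69 FPKM in control libraries.

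**Figure D5:**
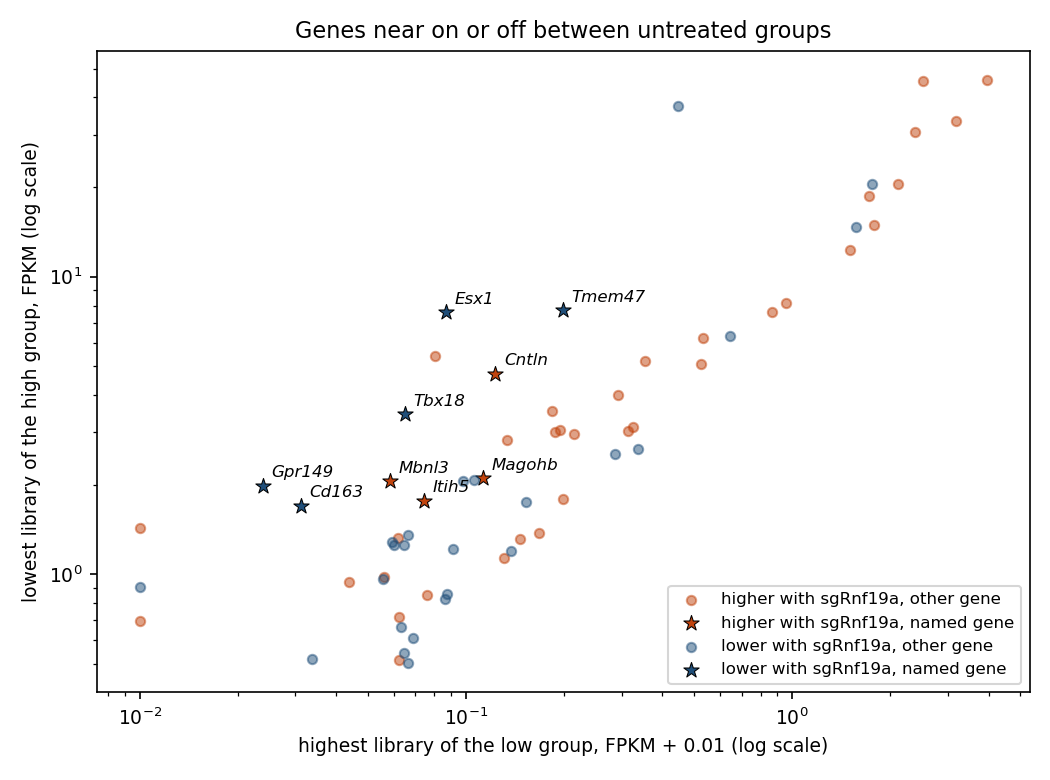
FPKM in the lowest library of the high group against the highest library of the low group, both on log axes, for the 67 genes near on or off between untreated groups. Stars mark the 9 of them described above; they lie at 0.189 FPKM or less in the low group, and other genes reach higher levels on both axes.

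Over all 12 libraries, the genes most like the mean profile of the 5 higher genes were Dsp (Pearson r 0.996), Zdhhc23 (0.991), Gjc1 (0.987), 4930452B06Rik (0.985) and Pxylp1 (0.977). Those most like the 5 lower genes were Grb10 (0.990), Nrxn2 (0.987), Slc2a10 (0.986), Emilin1 (0.985) and Tnc (0.985). The 12 points share 4 groups, so these values describe a common split by guide. Dsp, which encodes the desmosomal protein desmoplakin, averaged 29.7 CPM in sgRnf19a_IR and 1.18 CPM in control_IR, and 50.9 CPM in sgRnf19a and 0.466 CPM in control libraries. Within the higher genes Itih5 (r 0.994) followed the mean most closely and Magohb (0.859) least. Within the lower genes Cd163 (0.997) was closest and Tmem47 (0.917) farthest.

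Lists of genes that work with or resemble several of the 10 were called in part, beside a median log2 fold change over all genes of 0 with IR and -0.01 untreated and a share called of 18.3% with IR and 16.3% untreated. Several lists, such as those with 2 of 10 or 2 of 12 called, were near that share, and the lists are small. Fold changes and calls of list genes, here and below, are without the length and GC correction. In the Hedgehog pathway, which Hhat serves, 13 genes were tested with IR, of which 2 rose and 3 fell, and 14 untreated, of which 1 rose and 3 fell, with medians of -0.10 and -0.40. Gli2, a transcription factor of the pathway, averaged 0.197 CPM in sgRnf19a_IR and 2.25 CPM in control_IR (log2 fold change -3.49, SE 0.51, edgeR adjusted p = 0.00761), and 0.0535 CPM in sgRnf19a and 2.50 CPM in control libraries (-5.55, adjusted p = 5.03e-05). The receptor gene Ptch1 fell by 0.60 on the log2 scale and the coreceptor gene Boc by 0.86 untreated (edgeR adjusted p = 0.00772 and 0.0164). The ligand gene Shh was at 0 in all 12 libraries. Cdon, another coreceptor gene, rose in both conditions (log2 fold change 1.04 with IR and 0.82 untreated, edgeR adjusted p = 0.0463 and 0.00812). The remaining calls, named after their values were seen, were with IR alone: the signal transducer gene Smo fell by 1.14 and Gli1 by 1.62, and Gli3 rose by 1.07 (edgeR adjusted p = 0.0243, 0.0357 and 0.038).

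Of 12 muscleblind and partner splicing genes, Mbnl1 rose in both conditions (1.87 with IR and 0.58 untreated, edgeR adjusted p = 0.0455 and 0.0171) and Nova1 untreated, with medians of 0.59 and 0.11. Among 14 centriole linker genes, Crocc, which encodes rootletin, fell with IR (-0.86, edgeR adjusted p = 0.0485), and the median was 0.38. Untreated, edgeR called 0 of these (median 0.15), with 3 at an unadjusted p under 0.05 and 1 called by DESeq2. For relatives of Itih5 and hyaluronan genes, 2 of 10 rose with IR, and 2 rose and 2 fell of 12 untreated, with medians of 0.71 and -0.25. With IR the higher genes were Itih4, a relative of Itih5, at 0.838 CPM in sgRnf19a_IR and no count in control_IR (edgeR adjusted p = 0.0155), and the hyaluronan receptor gene Hmmr at 106 CPM in sgRnf19a_IR and 19.3 CPM in control_IR (adjusted p = 0.0359). Untreated, Has1, a hyaluronan synthase, was higher, at 2.36 CPM in sgRnf19a and 0.743 CPM in control libraries (edgeR adjusted p = 0.0171), and Tnfaip6 lower, with no count in sgRnf19a and 0.409 CPM in control libraries (adjusted p = 0.0106). The other untreated calls, named after their values were seen, were the receptor gene Cd44, at 589 CPM in sgRnf19a and 450 CPM in control libraries (edgeR adjusted p = 0.0336), and the synthase gene Has2, at 0.282 CPM in sgRnf19a and 0.874 CPM in control libraries (adjusted p = 0.0352). Of 6 T-box genes, Tbx2 rose in both conditions (1.91 with IR and 3.38 untreated, edgeR adjusted p = 0.0367 and 0.0312), and Eomes rose untreated, with list medians of 0.56 and 0.24. In the group of PMP22, claudin and junction genes around Tmem47, Pmp22 fell by 1.57 with IR and 1.68 untreated, and the junction adhesion gene F11r rose by 2.31 and 1.07 (edgeR adjusted p under 0.05 for each). That group counted 2 higher and 1 lower of 11 with IR, and 2 higher and 2 lower of 12 untreated, with medians of 0.23 and 0.02. Of 5 placental and reproductive homeobox genes, relatives of Esx1, Cdx2 rose untreated (median -0.16), and 0 were called with IR by edgeR or DESeq2, or at an unadjusted p under 0.05 (median -0.36).

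Among markers of other cell types, some fibroblast, endothelial and epithelial genes were called, and 0 macrophage and melanocyte markers were called by edgeR. Over all genes the share called was 18.3% with IR and 16.3% untreated, and each marker list is small. Of 12 fibroblast markers, 3 rose and 3 fell among 11 tested with IR, and 1 rose and 4 fell untreated, with medians of 0.34 and -0.52. Their summed level was 159 to 261 CPM in sgRnf19a_IR and 458 to 483 CPM in control_IR, and 88.4 to 203 CPM in sgRnf19a and 536 to 573 CPM in control libraries, mostly through Col3a1. None of these markers was at 0 in all 12 libraries. Endothelial markers counted 2 higher of 5 with IR and 1 higher of 7 untreated (medians 2.13 and -0.82), with Flt1 at 27.5 CPM in sgRnf19a_IR and 6.26 CPM in control_IR libraries. Endothelial markers summed to 32.5 to 38.7 CPM in sgRnf19a_IR and 7.67 to 9.62 CPM in control_IR, and to 47.6 to 54.5 CPM in sgRnf19a and 13.3 to 15.5 CPM in control libraries, mostly through Flt1. Untreated, the other 6 tested had negative log2 fold changes and none was called, among them Pecam1 at 0.833 CPM in sgRnf19a and 1.90 CPM in control libraries; with IR Pecam1 rose, at 3.23 CPM in sgRnf19a_IR and 1.15 CPM in control_IR (edgeR adjusted p = 0.0356). Epithelial markers counted 2 lower of 4 with IR and 3 lower of 5 untreated (medians -0.55 and -0.49). Of the melanocyte markers tested, 3 with IR and 4 untreated, 0 were called by edgeR, with 1 in each condition at an unadjusted p under 0.05 and called by DESeq2. The part of other cells in the levels of the 10 genes was not tested.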

How the data were processed

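RNA was measured in 12 libraries of mouse cells labelled B16F10. Per the labels' protocols, ribosomal RNA was depleted, strand-marked libraries had 12 PCR cycles, and pairs of 37 bp were read. The submitters' processing notes name Bowtie2, HTSeq, DESeq2, mm10 and GRCm39; the sources used here give neither versions nor strand use. The authors deposited whole-number counts per gene, not normalized, and FPKM values. The deposited counts were treated as estimated counts, since low values pile up at multiples of 4 (in genes over 2 kb, 5958 values of 4, 989 of 3 and 1000 of 5). A further 12 per-sample columns were not used. Coordinates come from the deposited FPKM table, where 26714 of the 29456 IDs also in GENCODE M21 (mm10) had its start and end.

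The 6 IR-treated libraries alone were fitted to test the 10 genes, and the 6 untreated ones to give background. Both used edgeR 4.0.16 in R 4.3.3 (filterByExpr with minimum count 10 and total 15, TMM, glmQLFit robust, glmQLFTest, 2-sided, Benjamini-Hochberg over all genes, called under 0.05). The SE is the log2 fold change divided by the square root of F. CPM are TMM-scaled over 12 libraries. Shared stretches were counted as 37-mers of the longest transcript found in other genes. The members and the gene lists were chosen with earlier results of these data known. The genes planned to be named were the 10 genes, Rnf19a, 5 protein-coding neighbours each side, up to 4 called genes per list, and the 5 most alike per direction (log2 of CPM + 0.5, mean of at least 1 CPM). Further genes, such as Smo, Gli1, Gli3, Cd44 and Has2, were named after their values were seen. Alternatives were DESeq2 1.42.0, other factors and filters, all 12 libraries in a single fit, limma 3.58.1 on log2(FPKM + 1) or log2(FPKM + 0.1), a length and GC correction (splines, 5 degrees of freedom), a replicate block, each library left out and, added after the data were seen, counts divided by 4. The edgeR step was tested on simulated data. The result of 1 gene list is not reported here.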

Additional observations from a re-analysis of the deposited data

How the results depend on the processing

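The directions of all 10 genes held under every alternative run. All 10 stayed called with IR under DESeq2, its size factors, upper-quartile factors, no filter and 1 CPM in 3 libraries. They also stayed called under the length and GC correction, all 12 libraries in a single fit and counts divided by 4. The same held with the replicate block, whose guide difference rests only on library numbers present in both IR-treated groups. With limma on log2(FPKM + 1) or log2(FPKM + 0.1), at a mean of at least 0.5 FPKM, the count was 4, since the other 6 did not reach that mean, and without that filter it was 5. Leaving out single libraries gave 6 to 10. Among these, calls were lost for Tmem47, Hhat, Mbnl3 and Cntln alone, while the genes called over the whole table ran from 397 to 5351 and the neighbours called from 0 to 18. Esx1, Tbx18, Gpr149, Cd163, Hhat and Magohb entered the main test through their high group alone, so their part in these counts is not read as support. Of the 4 genes that passed the filter in both groups, only Itih5 stayed called with each library left out. With IR the whole table gave 2797 calls, 6140 with all 12 libraries, 5110 with DESeq2 and 422 with limma without a filter. Neighbours called with IR numbered 9, then 22 with all 12 libraries, 18 with DESeq2, 5 with limma on log2(FPKM + 1), 5 after the length and GC correction and 0 with limma without a filter. Untreated, calls were 2825 and 1131 with all 12 libraries, with 10 and 3 neighbours, and 1353 to 3797 calls and 6 to 13 neighbours with a library left out. The cause of these shifts was not tested. Depth limits the low groups, which hold 37 read pairs or fewer each.

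The labels do not say whether equal numbers in the names mark paired libraries. Deviations of same-numbered libraries correlated at -0.157, -0.010 and 0.033 untreated and at -0.003 and 0.079 with IR. Of 6 untreated libraries, 0 correlated best with their own number. So few libraries cannot decide whether they were paired. With the replicate block 5107 genes and 19 neighbours were called with IR, and 3262 genes and 13 neighbours untreated. Of the IR-treated libraries, only numbers 1 and 4 occur with both guides. Library 3 of sgRnf19a_IR and library 5 of control_IR thus add nothing to the guide difference in the IR-treated block fit.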

Other observations

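Along chromosome 15 the guide difference was lower towards the end of the chromosome. Its median log2 fold change in windows of 20 Mb was, in order, 0.94, 0.27, 0.15, -0.69, -0.56 and -0.59 with IR and 0.22, -0.08, -0.39, -0.53, -0.40 and -0.51 untreated. After the length and GC correction the medians with IR were 0.23, -0.32, -0.30, -0.41, -0.45 and -0.46, so the place of the change differs between conditions and with the correction. A split at Rnf19a, chosen after the values were seen, is given with no test and does not place the change there. Of 455 protein-coding genes tested with IR that start after Rnf19a (at 36239933, mm10), 339 had a negative log2 fold change, with a median of -0.53, and 147 were called lower and 17 higher in sgRnf19a_IR than in control_IR. Of 68 genes before it, 21 were negative, with a median of 0.58, and 6 were called lower and 19 higher. Untreated, 399 of 470 genes after it were negative, with a median of -0.45, and 212 were called lower and 12 higher with the guide. Before it, 32 of 75 were negative, with a median of 0.09, and 10 were called lower and 15 higher. After the length and GC correction the medians were -0.43 after Rnf19a and 0.10 before it with IR. On chromosome 3, 195 genes were called higher and 26 lower of 653 untreated, and 169 higher and 15 lower of 625 with IR. None of the 10 genes lies on chromosome 15.

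Among the 67 genes near on or off between the untreated groups, 10 neighbouring pairs lay within 1 Mb of each other. Of these, 8 pairs changed the same way. They were Dsp and Bmp6 (146 kb apart), Gm4951 and Iigp1, and neighbours that share a family name. The latter were Tgtp1 and Tgtp2, Oas1g and Oas1a (8.64 kb), and the run from Trim34a to Trim30a on chromosome 7. The share of such pairs over all genes was not computed, so nothing about regions is read from this count. Gng11, between Samd9l and Ppp1r9a on chromosome 6, was lower with the guide while both were higher.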
